A study of Homo sapiens with 6 samples.

Results

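The 10 genes described here encode the insulin and IGF-1 receptors (INSR, IGF1R), the insulin receptor substrates (IRS1, IRS2, IRS4) and 5 IGF-binding proteins (IGFBP2 to IGFBP6). They were chosen from 60623 genes of the count table by gene symbol, and were selected on their differences between the compared groups, so no test is given for any of them. All 10 were found, and all 10 passed the filter on low counts. Insulin and the insulin-like growth factors bind receptor tyrosine kinases, which phosphorylate IRS adaptors. The adaptors recruit PI3-kinase, which activates AKT, and AKT in turn restrains FOXO transcription factors and relieves the brake on mTORC1. IGF-binding proteins are secreted and hold IGFs outside the cell, where they can limit or prolong their action. In pancreatic ductal carcinoma this route is known as a growth and survival input.

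The study compared 3 RNA-seq libraries from cells carrying a short hairpin RNA against STN1, a subunit of the telomere-binding CST complex, with 3 from cells with a control hairpin (shControl, headed scramble, genotype label WT). All 6 are labelled PANC-1, an established human line from a pancreatic ductal carcinoma, grown in serum-supplemented DMEM. The genotype labels of shSTN1 replicates 2 and 3 name STN2 and STN3, and the titles, which name STN1, were used. The titles call the replicates biological. Nothing more on separate cultures, and nothing on pools or clones, is given in the sources used here, so the p-values cover only the spread among these libraries and that spread may be technical.

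STN1 reads numbered 387, 346 and 278 in control and 303, 306 and 275 under the shSTN1 label. Its levels, 16.4 ± 1.95 and 14.8 ± 0.793 CPM (SD, n = 3), overlapped. CPM are reads scaled to the TMM-adjusted size of each library. The log2 difference was -0.14 (SE 0.105, edgeR adjusted p = 0.253), so STN1 mRNA does not set the labels apart. Total reads ran from 17357223 to 23336942 per library. Of 17451 genes tested, 74.1% passed an edgeR adjusted p of 0.05 between the groups, 35.6% higher and 38.5% lower under the shSTN1 label. Of 14 markers of ductal carcinoma lines, 12 were tested and all 12 were higher in the shSTN1-labelled libraries, where the summed level of the 14 was 7180 to 7380 CPM against 1190 to 1250 CPM in control. Of 13 markers of embryonic kidney lines, 11 were lower and 1 higher. Their summed level was 157 to 163 CPM under the shSTN1 label, with SALL1 and CDKN2A at 0 reads, and 1140 to 1170 CPM in control. The higher one was PAX2, at 62.5 ± 1.96 CPM under the shSTN1 label and 24.2 ± 0.742 CPM in control. Summed leukocyte, endothelial, acinar and islet markers stayed at or under 5.41 CPM in each library. PTPRC and CD3E in control, CD3E in the shSTN1-labelled libraries, and PECAM1 in both groups had 0 reads. Fibroblast markers summed to 64.9 to 79.1 CPM in control and 147 to 162 CPM under the shSTN1 label, where DCN had 0 reads. Most of this sum was COL1A1, at 46.7 ± 3.16 CPM in control and 124 ± 6.91 CPM under the shSTN1 label, and COL3A1. The others had few reads in all, control before shSTN1 label: COL1A2 1 and 2, LUM 30 and 2, PDGFRA 27 and 13, PDGFRB 44 and 80. The marker lists were chosen with earlier results of these data known, so their counts describe the libraries and do not test cell identity. These marker shifts lie between the same libraries as every difference below, and their part in those differences was not tested.

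IRS4 and IGFBP5 were well expressed in control, and under the shSTN1 label they had 3 and 0 reads in all. INSR was also lower there, and IRS1, IRS2 and IGFBP4 were higher. IGF1R, IGFBP2, IGFBP3 and IGFBP6 overlapped between the groups. The libraries of the groups thus did not overlap for 6 of the 10 genes, beside 75.6% of all genes tested. In bulk RNA, fewer cells that express a gene and less RNA per cell cannot be told apart.

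**Figure D1:**
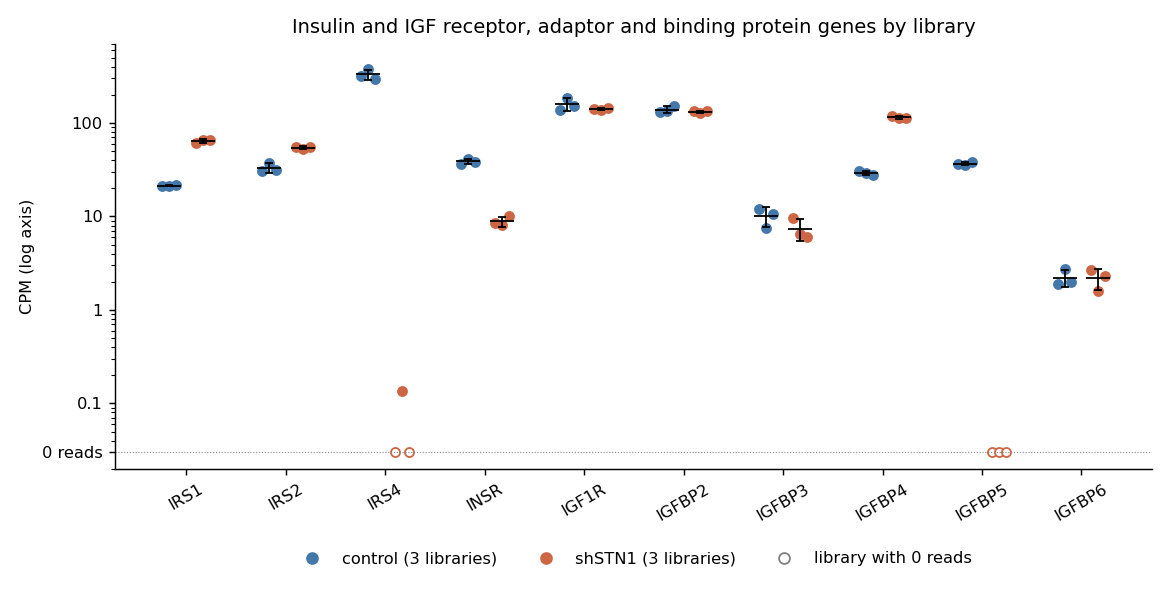
Level of each gene in every library, in CPM on a log axis, with bars for mean and SD of 3 libraries where none was at 0 reads; open points mark libraries with 0 reads. IRS4 and IGFBP5 drop to the bottom of the plot in the shSTN1-labelled libraries, whereas IGF1R, IGFBP2, IGFBP3 and IGFBP6 overlap.

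INSR (ENSG00000171105.14, chromosome 19, positions 7112255 to 7294034 in GRCh38) encodes the insulin receptor. Its level was 36.6, 41.5 and 38.0 CPM in the control libraries and 8.55, 8.02 and 10.1 CPM under the shSTN1 label. Every shSTN1-labelled library lay below every control library. The mean was 4.36-fold lower, 8.89 ± 1.08 against 38.7 ± 2.52 CPM (SD, n = 3), a log2 difference of -2.12 (SE 0.112).

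IGF1R (ENSG00000140443.15, chromosome 15, positions 98648539 to 98964530) encodes the IGF-1 receptor, which can also pair with the insulin receptor as a hybrid. It stood at 139, 185 and 154 CPM in control and at 143, 139 and 146 CPM under the shSTN1 label. The groups overlapped, since only control replicates 2 and 3 lay above the highest shSTN1-labelled library. The log2 difference was -0.15 (SE 0.122), and it stayed between -0.26 and -0.05 over other scalings and with any library left out.

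Per transcript length, the receptor pool leaned further to IGF1R in the shSTN1-labelled libraries. Levels as CPM per kilobase of exon (FPKM) were 11.4 ± 1.69 for IGF1R and 3.71 ± 0.241 for INSR in control, and 10.2 ± 0.246 and 0.850 ± 0.104 in the shSTN1-labelled libraries. The ratio of IGF1R to INSR in FPKM was 2.85, 3.34 and 3.03 in control and 12.5, 13 and 10.8 in the shSTN1-labelled libraries. INSR made up 24.6% ± 1.49 of the receptor FPKM in control and 7.66% ± 0.693 in the shSTN1-labelled libraries.

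IRS4 (ENSG00000133124.11, chromosome X, positions 108732482 to 108736409) encodes an adaptor that few adult tissues express and that was isolated from a human embryonic kidney line. Control libraries held 6578, 8457 and 5470 of its reads, or 317, 378 and 296 CPM. The shSTN1-labelled libraries had 0, 3 and 0 reads. All 3 remaining reads thus came from shSTN1 replicate 2. The ratio of control to shSTN1-labelled level was 6650, with a 95% exact interval of 2280 to 32300 that covers counting error only. Without shSTN1 replicate 2 the gene had no reads in that group.

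IRS1 (ENSG00000169047.5, chromosome 2, positions 226731317 to 226799759), the adaptor that was described first for the insulin receptor, was higher instead. Its control libraries held 21.1, 21.4 and 21.5 CPM and the shSTN1-labelled libraries 60.9, 65.7 and 65.4 CPM. The means were 21.3 ± 0.183 and 64.0 ± 2.68 CPM (SD, n = 3), a 3.00-fold difference and 1.58 on the log2 scale (SE 0.036). The control libraries lay closer together, relative to their mean, for IRS1 than for any other of the 10 genes. With 439, 479 and 396 reads, counting error alone would on average spread them more, so this closeness is no measure of steady expression.

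IRS2 (ENSG00000185950.9, chromosome 13, positions 109752698 to 109786568) is an adaptor whose transcription is known to be raised by FOXO factors when insulin signalling is low. It stood at 30.7, 37.5 and 31.2 CPM in control and at 54.7, 52.6 and 55.9 CPM under the shSTN1 label. All 3 shSTN1-labelled libraries were above all control libraries. The mean was 1.64-fold higher, with a log2 difference of 0.72 (SE 0.0952).

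The promoters of the 3 adaptors are shown because their letters at and after the E-box are alike although IRS4 was lower and the other adaptors higher. Windows from 250 bases before to 50 after a RefSeq start (GRCh38.p14) were matched for all 10 genes. For each adaptor the window at the start nearest the principal GENCODE transcript was searched for the E-box letters CACNTG, a sequence bound by basic helix-loop-helix factors, and the match nearest the start was printed with its neighbouring bases, 5′ to 3′ on the gene's strand. Capitals mark the E-box and, where it follows, the letters TGTTTTG, the core of an insulin response element as FOXO factors read it.
IRS1: cgcggaggctccgtCACGTGtttttctcc
IRS2: gcgtaacgccgagtCACATGtTGTTTTGc
IRS4: cgtgaggctgtggtCACGTGtTGTTTTGc
The stretches lie on the minus strand at chr2:226799771-226799799, chr13:109786616-109786644 and chrX:108736501-108736529. Counted from the RefSeq starts, the E-box begins 47 bases before the IRS2 start and 138 before the IRS4 start, and at base 36 of the IRS1 transcript. The IRS1 stretch lies before the GENCODE start of that gene, at 226799759. The stretches were aligned on the E-box, so its fixed letters agree by design, and no chance level was worked out. Over the last 17 bases, IRS2 and IRS4 were identical at 16, IRS1 and IRS4 at 14, and IRS1 and IRS2 at 13. The printed bases before these were left out of that count and agree less.

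Of 35116 such windows in the RefSeq table, 7.26% held CACGTG, 11.1% CACATG and 4.92% TGTTTTG on either strand. The other forms of CACNTG were not counted, so the share of windows with any match to the letters searched is not known here. The E-box followed after 1 base by TGTTTTG was in 3 windows, those of IRS2, IRS4 and IRS4-AS1, and the last is the IRS4 copy read from the opposite strand. This joined pattern contains the other letters searched, and it was written after the adaptor promoters had been read. A match describes letters and is not evidence of a bound site.

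The adaptors' per-length make-up differed almost completely between the groups. IRS4 held 93.1% ± 0.406 of the summed adaptor FPKM in control (SD, n = 3), IRS2 4.52% ± 0.175 and IRS1 2.40% ± 0.284. With coding length in place of exon length the IRS1 share in control was 5.69%. In the shSTN1-labelled libraries IRS1 held 49.0% ± 1.36, IRS2 50.9% ± 1.5 and IRS4 0.0891% ± 0.154. The adaptors together stood at 90.3 ± 11.3 FPKM in control and 13.1 ± 0.302 FPKM under the shSTN1 label. IRS1 reached 0.910, 1.02 and 0.957 of the IRS2 FPKM there, so the order of these neighbours does not exceed their spread, and with coding length it was IRS1 that held the larger share, 55.9%.

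**Figure D2:**
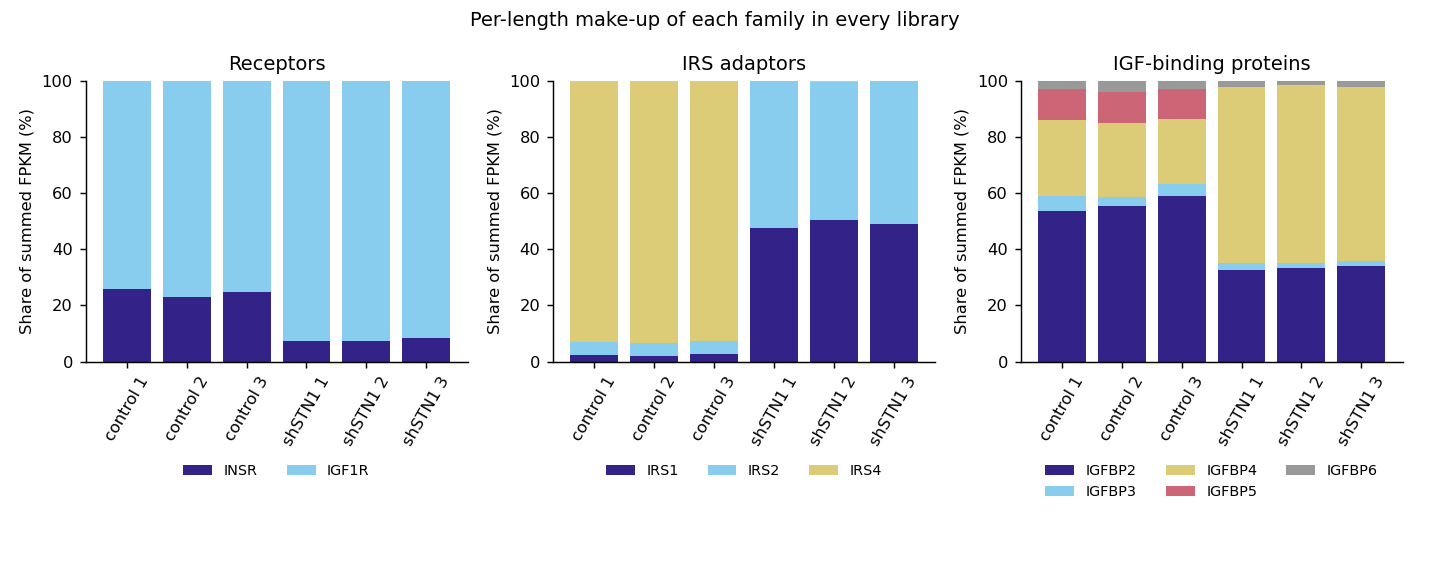
Share of the summed FPKM of receptors, IRS adaptors and IGF-binding proteins taken by each gene, in percent, for every library (bars to 100%). IRS4 fills 93.1% of the adaptor bar in control and IRS1 with IRS2 nearly all of it in the shSTN1-labelled libraries; IGFBP4 takes the place of IGFBP2 as the largest binding protein share.

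IGFBP2 (ENSG00000115457.10, chromosome 2, positions 216632828 to 216664436) and IGFBP5 (ENSG00000115461.5, positions 216672105 to 216695525) encode secreted IGF-binding proteins and lie tail to tail, 7669 bases apart. IGFBP2 was at 131, 133 and 152 CPM in control and 135, 128 and 133 CPM under the shSTN1 label. These levels overlapped, with a log2 difference of -0.07 (SE 0.0735). IGFBP5 had 759, 789 and 700 reads in control, or 36.5, 35.3 and 37.9 CPM, and 0 reads in each shSTN1-labelled library. It was at least 729-fold lower against a floor of 3 reads over that group. A count of 0 allowed at most 0.137 to 0.170 CPM in a single library.

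The sequence before the start of each of these neighbours is shown because 1 of the pair was without reads while the other overlapped between the groups. Both are the 250 bases before the RefSeq start, 5′ to 3′ on the gene's strand, with each CG dinucleotide in capitals.
IGFBP2: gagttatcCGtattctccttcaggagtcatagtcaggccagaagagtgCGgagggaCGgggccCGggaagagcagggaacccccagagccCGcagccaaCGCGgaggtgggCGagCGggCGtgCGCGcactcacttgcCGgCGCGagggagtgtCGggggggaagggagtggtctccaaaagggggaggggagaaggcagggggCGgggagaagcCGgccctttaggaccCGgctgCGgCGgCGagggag
IGFBP5: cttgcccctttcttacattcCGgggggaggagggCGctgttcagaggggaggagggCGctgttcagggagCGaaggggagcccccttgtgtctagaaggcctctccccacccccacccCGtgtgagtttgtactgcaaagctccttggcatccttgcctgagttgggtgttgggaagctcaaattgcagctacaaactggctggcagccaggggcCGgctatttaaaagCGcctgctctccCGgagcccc
They lie at chr2:216633170-216633419 (plus strand) and chr2:216695550-216695799 (minus strand). IGFBP2 has 22 CG dinucleotides in these bases and IGFBP5 has 8. In the full windows of 300 bases IGFBP2 had 28 and IGFBP5 had 9, the fewest of the 10 genes, where the median of all 35116 windows was 14. IGFBP6 came next with 12, and the other 7 genes had 26 (IRS4) to 55 (IGF1R). Methylation was not measured.

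IGFBP4 (ENSG00000141753.7, chromosome 17, positions 40443461 to 40457731) encodes a binding protein that is cleaved by the protease PAPPA to release IGF. It stood at 30.4, 29.1 and 27.8 CPM in control and at 119, 112 and 112 CPM under the shSTN1 label. No library of the groups overlapped. The mean was 3.93-fold higher, 114 ± 4.33 against 29.1 ± 1.29 CPM (SD, n = 3), with a log2 difference of 1.97 (SE 0.0482).

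IGFBP3 (ENSG00000146674.15, chromosome 7, positions 45912245 to 45921874), the main carrier of IGFs in blood, was at 12.1, 7.56 and 10.7 CPM in control and 9.67, 6.41 and 6.07 CPM under the shSTN1 label. The lowest control library lay below the highest shSTN1-labelled library, and the log2 difference was -0.46 (SE 0.291). IGFBP6 (ENSG00000167779.9, chromosome 12, positions 53097436 to 53102345), which prefers IGF-2, had 39, 61 and 37 reads in control and 55, 35 and 41 in the shSTN1-labelled libraries. Its means were 2.20 ± 0.460 and 2.21 ± 0.551 CPM (SD, n = 3), and the log2 difference was -0.01 (SE 0.265).

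Per length, IGFBP2 held 56.0% ± 2.57 of the summed FPKM of the 5 binding proteins in control, IGFBP4 25.6% ± 2.04, IGFBP5 10.9% ± 0.156, IGFBP3 4.27% ± 0.960 and IGFBP6 3.17% ± 0.747. IGFBP3 and IGFBP6 were within their spread of each other. With coding length the IGFBP5 share was 18.8%. In the shSTN1-labelled libraries IGFBP4 led with 62.7% ± 0.577, followed by IGFBP2 with 33.4% ± 0.741. IGFBP3 at 1.94% ± 0.441 and IGFBP6 at 1.97% ± 0.430 were again indistinguishable. The ratio of IGFBP2 to IGFBP4 in FPKM was 1.99, 2.11 and 2.53 in control and 0.520, 0.528 and 0.548 in the shSTN1-labelled libraries. The summed level was 51.9 ± 2.18 FPKM in control and 82.9 ± 3.28 FPKM under the shSTN1 label, the opposite direction to the adaptor sum.

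**Figure D3:**
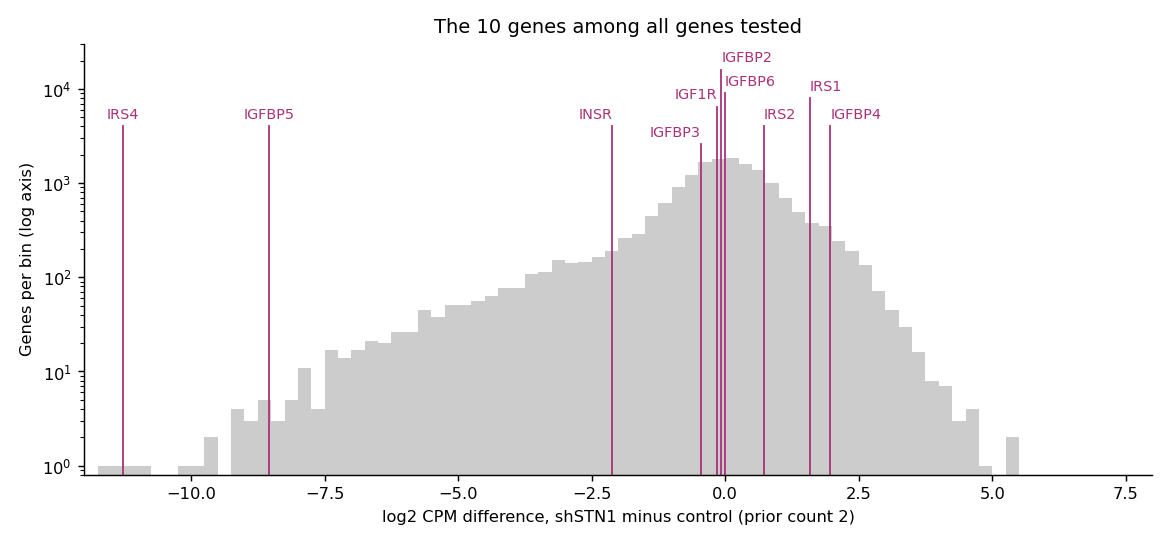
Distribution of the log2 CPM difference, shSTN1 minus control (prior count 2), over 17451 genes (log axis for genes per bin), with the 10 genes marked. IRS4 and IGFBP5 lie in the far lower tail, where the position depends on the prior count, and IGFBP2, IGFBP6 and IGF1R lie at the centre.

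Among all genes tested, 92.3% had a lower log2 difference than IRS1, 95.5% than IGFBP4, 78.0% than IRS2 and 8.99% than INSR. These positions only place the genes, which were chosen from this contrast.

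The genes most like 4 of these in level over the 6 libraries were sought among 13991 protein-coding genes by the Euclidean distance of log2 CPM. Nearest to IRS4 were SLIT2 (distance 1.54), CDKN2A (1.90) and HOXD13 (2.67), all at or near 0 CPM under the shSTN1 label. IGFBP5 was nearest to SALL1 (0.166), PDPN (0.191) and HMX1 (0.426), which were at 38.6 ± 2.72, 39.4 ± 1.04 and 42.2 ± 6.44 CPM in control and at 0 reads under the shSTN1 label. SALL1 and CDKN2A are also on the embryonic kidney marker list. That list was chosen with earlier results of these data known, so the overlap does not test cell identity. IRS2 was nearest to RAB22A (0.178), CLDN12 (0.193) and LPP (0.212), and IGFBP6 to XKR6 (0.548), SPICE1 (0.561) and KIAA1257 (0.578).

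Tensin genes, whose products link integrins to actin, were the nearest tested coding gene on 1 side of 3 binding protein genes. TNS1, 1104063 bases from IGFBP5, stood at 8.41 ± 0.673 CPM in control and 0.224 ± 0.157 CPM under the shSTN1 label (edgeR adjusted p = 1.60e-16). TNS3, 1353280 bases from IGFBP3, was higher under that label, at 462 ± 6.47 against 118 ± 9.84 CPM in control (edgeR adjusted p = 9.06e-23). TNS4, 18097 bases from IGFBP4, was also higher there, at 2.83 ± 0.337 against 0.201 ± 0.215 CPM (edgeR adjusted p = 2.79e-09). On the other sides, ADCY1, beside IGFBP3, was lower, at 7.11 ± 1.03 against 41.4 ± 3.47 CPM (edgeR adjusted p = 2.80e-19), opposite to TNS3. TOP2A, beside IGFBP4, had a log2 difference of -0.21 (edgeR adjusted p = 0.00276), opposite to TNS4. RPL37A, beyond IGFBP2, did not pass (edgeR adjusted p = 0.370).

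The other genes of the pathway were taken from a list of 85 in 9 roles, of which 75 were tested. By edgeR's test 33 were higher under the shSTN1 label and 29 lower, or 44.0% and 38.7% of those tested, beside 35.6% and 38.5% of all genes. The counts by role below, given with their percent of genes tested, stand beside these same shares of all genes. The median log2 difference of the list was 0.05, and that of all genes tested was -0.03. The median size of the difference, without its sign, was 0.73 in the list and 0.66 over all genes. Where values are set against each other below, the shSTN1-labelled libraries come before control, as mean ± SD (n = 3). Every pathway gene named as tested passed except STC2. The largest edgeR adjusted p among those that passed was that of IGF2.

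Transcripts of the ligands were scarce. IGF1 and INS had 0 reads in every library. IGF2 had 1, 13 and 19 reads in control and 40, 30 and 38 in the shSTN1-labelled libraries, or 0.553 ± 0.491 CPM and 1.83 ± 0.406 CPM (log2 difference 1.97, SE 0.904, edgeR adjusted p = 8.11e-04). IGF2 shares its locus with INS-IGF2, so its reads are uncertain. IGF2R, the receptor that removes IGF-2 from the cell surface, was 2.48-fold higher, at 850, 890 and 895 CPM against 327, 397 and 339 CPM (edgeR adjusted p = 8.33e-18).

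Of 6 tested genes for other binding proteins and their processing, 4 were higher (66.7%) and 1 lower (16.7%). IGFBP7, a related protein with weak affinity for IGFs, was 7.64-fold higher, at 61.2 ± 0.914 against 8.01 ± 1.07 CPM (edgeR adjusted p = 2.79e-22). IGFBPL1 rose from 6.85 ± 0.914 to 26.4 ± 1.53 CPM, and STC1, an inhibitor of the IGFBP4-cleaving pappalysins, from 2.20 ± 0.344 to 11.3 ± 1.56 CPM. STC2, listed in the same role, was far more abundant than STC1 and overlapped between the groups, with means of 93.6 against 104 CPM. Its log2 difference was -0.15 (SE 0.114, edgeR adjusted p = 0.0816), so the rise of STC1 was not shared by STC2. PAPPA itself had 1 to 4 reads in each library, and IGFBP1, which lies next to IGFBP3, had 1 to 6 reads, and neither was tested.

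Of 11 tested adaptors outside the IRS family, 6 were higher (54.5%) and 4 lower (36.4%). SHC1, which couples the receptors to the RAS and ERK route, was 3.98-fold higher, at 662 ± 14 against 166 ± 1.76 CPM (edgeR adjusted p = 8.54e-24). NCK2 had a log2 difference of 1.06 and CRKL of -0.76. Inhibitors of the receptors and adaptors split evenly, with 4 of 9 higher and 4 lower (44.4% each). SOCS3, which marks IRS proteins for degradation, rose from 30.4 ± 2.97 to 100.3 ± 4.92 CPM and SOCS2 from 22.6 ± 3.89 to 64.0 ± 3.50 CPM. GRB14, which blocks the insulin receptor kinase, fell from 8.04 ± 0.256 to 1.07 ± 0.477 CPM.

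In the PI3-kinase group 6 of 9 tested genes were higher (66.7%) and 1 lower (11.1%). The catalytic subunit gene PIK3CB had a log2 difference of 0.85, and INPPL1, which encodes a lipid phosphatase, had 0.36. Of 9 AKT and regulator genes, 3 were higher and 3 lower (33.3% each). AKT2 stood at 3971 ± 70.0 against 960 ± 26.2 CPM (edgeR adjusted p = 5.95e-24) and AKT1 at 314 ± 10.3 against 179 ± 0.945 CPM.

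Among 16 tested substrates of AKT and genes of mTORC1, 9 were lower (56.2%), 4 higher (25%), and the median log2 difference was -0.40. TBC1D4, which links AKT to glucose transporter traffic, fell from 88.2 ± 5.67 to 9.18 ± 1.13 CPM (edgeR adjusted p = 5.08e-24). FOXO1, the transcription factor that insulin keeps out of the nucleus, fell from 28.8 ± 2.23 to 3.32 ± 0.535 CPM (edgeR adjusted p = 9.54e-20). EIF4EBP1, a translation repressor that mTORC1 inactivates, fell from 121 ± 14.9 to 36.7 ± 1.76 CPM. Of 13 tested FOXO targets, IRS2 not counted, 7 were lower (53.8%), 4 were higher (30.8%), and the median was -0.41. SESN3 (log2 difference -4.05) and TXNIP (-3.35) fell, whereas GADD45A (1.10) rose. IRS2, itself a FOXO target, stood on the higher side.

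**Figure D4:**
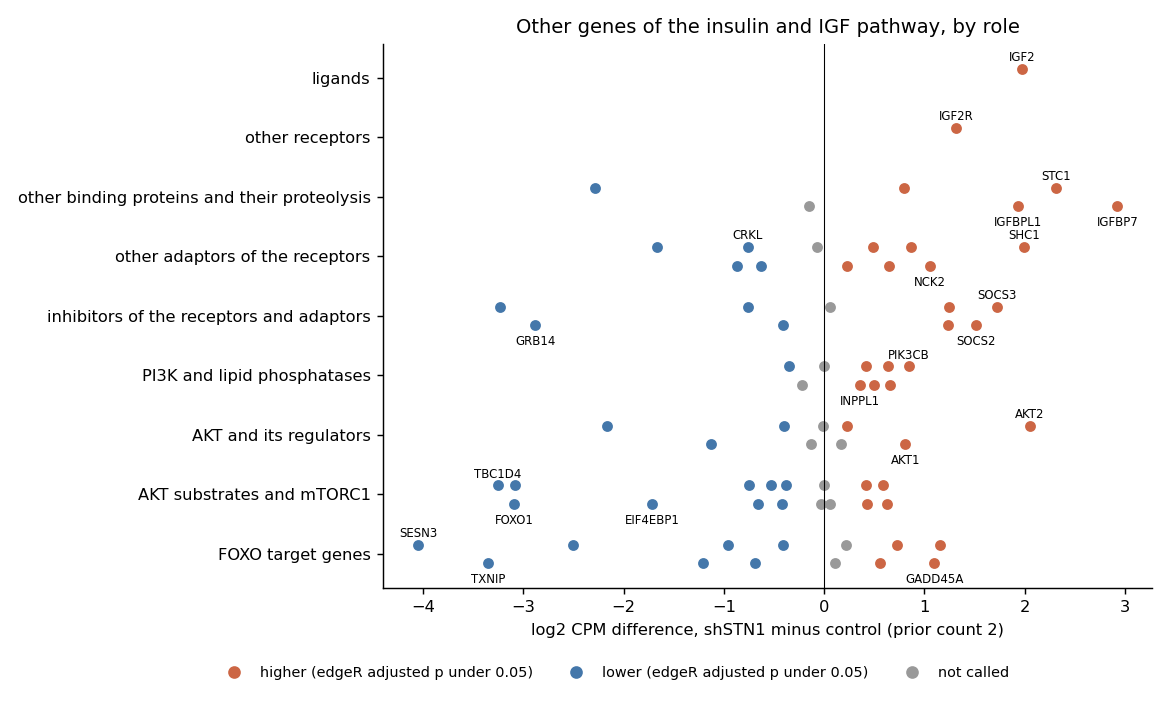
The log2 CPM difference, shSTN1 minus control (prior count 2), of the 75 tested pathway genes by role, coloured by edgeR call. The genes named in the text are labelled, except STC2. Points stand on both sides in most roles, with IGFBP7 farthest to the right and SESN3 farthest to the left.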

How the data were processed

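Bulk RNA-seq was analysed in 6 libraries, 3 labelled shSTN1 and 3 control, grouped by their titles. What the authors deposited is 1 table of raw read counts, whole numbers for each gene. The submitters' processing notes name cutadapt, FastQC, STAR 2.7.2b, featureCounts 2.0.1 and GRCh38. Neither annotation release nor strand setting was stated in the sources used here, so overlapping and antisense genes can share or lose reads. Of 60668 rows, 45 second copies of pseudoautosomal genes were left out. Positions and exon lengths came from GENCODE 29 (58516 of 60623 rows found by identifier without version), and promoters from the RefSeq table.

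Counts were fitted with edgeR 4.0.16 in R 4.3.3 over all 6 libraries: filterByExpr, TMM scaling, robust quasi-likelihood test without covariates, and Benjamini-Hochberg adjustment over 17451 genes with a threshold of 0.05. CPM used TMM-scaled library sizes. Log2 differences are between group means of log2 CPM with a prior count of 2, with the SE of that difference. FPKM divided CPM by union exon length. Members and lists were chosen with earlier results of these data known. Named pathway genes are, per role, up to 3 with the smallest adjusted p, and the ligands, IGFBP1 and IGFBP7; some genes this rule selects are not reported here. Named with them are the 3 genes closest in level to IRS4, IRS2, IGFBP5 and IGFBP6, and nearest tested coding genes beside a member. Values of the neighbours of IRS1 and IGF1R, and of NXT2 beside IRS4, are not reported here. PAPPA and STC2, and the tensins among the neighbours, were singled out after their values were seen. Floors of 3 reads and the 95% interval cover counting error only. In 5 simulated sets of counts based on this comparison, 17092 to 17100 genes were run and 200 were changed. There edgeR recovered 76.0% of genes changed 1.5-fold and 89.2% changed 2-fold, and 5.96% of its calls were false. In the data 74.1% of genes tested passed, a far larger share, so these rates need not hold for them. Chi-square per degree of freedom between replicates was 2.88 to 8.06, above sampling noise. Alternatives used RLE and upper-quartile factors, 2 other filters, DESeq2 1.42.0, limma-voom (limma 3.58.1), the replicate block, a prior count of 0.5, other gene lengths, and each library left out. Figures used matplotlib 3.10.9 in Python 3.11.15.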

Additional observations from a re-analysis of the deposited data

How the results depend on the processing

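Genes past the threshold numbered 12929 and ran from 12074 (at least 1 CPM in at least 3 libraries) to 13901 (no low-count filter), with 12450 by DESeq2 and 12917 by limma-voom. The 62 pathway genes called became 60 to 64 with a library left out and 61 or 62 otherwise. NCK1 and PHLPP2 were the called genes that lost their call under some alternatives (highest adjusted p 0.226 and 0.119). The pathway genes named in the report as passing kept their calls in all 13 settings, and STC2 passed in 4 of the 13. STN1 was called in none of its 9 alternatives (edgeR coefficient -0.22 to -0.06 with a library left out). The correlation of deviations between same-numbered libraries was -0.0123, 0.0171 and -0.0337, too low to treat the numbers as pairing. The replicate block gave 12742 genes, 12710 of them also called without it, the same 62 pathway genes and an STN1 coefficient of -0.15. The log2 differences of the 10 genes moved by less than 1 SD of log2 CPM between replicates (pooled over both groups) under each alternative run, except IRS4 (-12.8) and IGFBP5 (-10.53) with a prior count of 0.5, which sets values near 0 reads. IGFBP6 had either sign (-0.16 to 0.20).

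Shares of FPKM depend on the length used. With coding length, IRS4 held 86.2% of adaptor FPKM in control and IRS1 5.69%, IRS1 55.9% in the shSTN1-labelled libraries, IGFBP2 59.4% of binding protein FPKM in control and 45.9% in the shSTN1-labelled libraries, IGFBP4 50.2% there and IGFBP5 18.8% in control. With the longest transcript, IGFBP2 held 34.4% and IGFBP4 59.9% in the shSTN1-labelled libraries and IGFBP5 10.4% in control. IGFBP6 rests on 35 to 61 reads per library, which limits its precision. IGFBP3 had 107 to 252 reads per library, and its CPM had a coefficient of variation of 23.1% in control and 26.9% under the shSTN1 label.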

Other observations

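Control replicate 2 had the highest CPM of the control libraries for 5 of the 10 genes (IRS2, IRS4, INSR, IGF1R and IGFBP6), where it was highest for 34.7% of all genes tested. The coefficient of variation of CPM had no common direction between the groups. It was larger in control than under the shSTN1 label for IGF1R (14.8% and 2.41%), IRS2 (11.4% and 3.07%), IGFBP2 (8.64% and 2.52%) and IGFBP4 (4.42% and 3.79%). It was smaller in control for IRS1 (0.859% and 4.19%), INSR (6.51% and 12.2%), IGFBP3 (23.1% and 26.9%) and IGFBP6 (20.9% and 25%). The IRS1 value in control is below what counting error gives on average at its read numbers.

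The IRS4 locus holds a second coding annotation on the same strand, AL035425.2, with 322 reads in control and 0 in the shSTN1-labelled libraries, and an antisense RNA, AL035425.1, with 328 and 1. Both had fewer reads where IRS4 did. Because no strand setting of the counting is known, sense and antisense reads at this locus cannot be told apart. The annotated genes that overlap IGF1R had 19 or fewer reads per group, and those that overlap IRS2 and IGFBP5 had 0.

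COL4A1, a basement membrane collagen gene and the nearest tested coding gene beyond IRS2 toward higher coordinates, was at 45.6 ± 5.63 CPM in control and 1.05 ± 0.111 CPM under the shSTN1 label (edgeR adjusted p = 9.87e-25), whereas ABHD13 on the other side was higher (edgeR adjusted p = 1.72e-05). The genes around INSR also differed in direction, with ZNF557 at a log2 difference of -0.63 and ARHGEF18 at 0.36. These were named as neighbours by position, with edgeR adjusted p of 1.43e-04 and 0.00206. The genes beside IGFBP6 shared a direction, with SPRYD3 at a log2 difference of 0.72 and CSAD at 0.44 (edgeR adjusted p = 8.32e-08 and 0.00153).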
